A study of Sus scrofa with 20 samples.

Results

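Tenascin C (TNC), periostin (POSTN) and cartilage intermediate layer protein (CILP) are secreted proteins of the extracellular matrix, and their transcripts were followed in the pig heart after 3 protocols of coronary ischemia and in sham-operated controls. The 3 genes were taken by symbol from the probe table of the array platform, which holds 1 probe set for TNC, 2 for POSTN and 2 for CILP, so the description covers 5 of the 23999 probe sets tested and 3 of 6765 genes with a single symbol. The genes had been picked because earlier results of these same arrays showed them among the genes that differed between the ischemic groups and control. Their levels and differences are therefore given as a description, without p-values.

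Matricellular proteins are secreted into the matrix without being its main structural load bearers, and they act on cells by binding integrins, other matrix proteins and growth factors. In the adult heart they are made chiefly by fibroblasts, vascular cells and inflammatory cells, are scarce in resting muscle and appear around sites of injury and remodelling. Tenascin C is a large multimeric glycoprotein that loosens the attachment of cells to fibronectin and signals through integrins and the innate receptor TLR4. Periostin, made by activated fibroblasts, binds fibronectin, type I collagen and tenascin C and helps procollagen processing and collagen cross-linking through BMP1 and lysyl oxidase. CILP, first described in articular cartilage, binds transforming growth factor beta and insulin-like growth factor 1 and opposes their action, and in the heart it is a product of fibroblasts.

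The arrays came from 20 female pigs, 1 animal per 1-colour Affymetrix porcine array, in 4 groups of 5. RCS animals underwent 90 min of low-flow ischemia by coronary stenosis, 6 times at intervals of 12 h. RCO animals received a pair of 10 min coronary occlusions with 10 min of reperfusion after each, and this session was repeated 6 times, 12 h apart. SWOP animals, the classical second window of preconditioning, had a single such session of 2 occlusions, and their labels place sampling after 24 h of reperfusion. Controls had a sham operation only. How long after the last episode RCS and RCO hearts were sampled, which region was taken and how old the animals were is not stated in the labels, and no genetic alteration is named in any group. The series title places the question in whether preconditioning after chronic ischemia differs from the classical second window.

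Values are log2 signals as deposited, and the array medians lay between 6.75 and 6.82. With 5 arrays per group, a difference between 2 groups had a median standard error of 0.111 (log2) over all probe sets. Several arrays stood apart. Scores on the leading principal component (48.9% of variance) showed this: RCO replicates 2 and 3 scored 43.96 and 29.37, within the RCS range of 26.38 to 64.3, whereas the other RCO arrays scored -18.34 to -3.56, close to SWOP (-27.45 to -17.45), and controls scored -39.85 to -26.65. The spike-in spots were brighter on RCO replicate 1 and SWOP replicate 1 (11.09 and 10.91) than on any control array (10.58 to 10.66). RCS arrays differed from control arrays in the spike-in signal (10.32 ± 0.11 against 10.62 ± 0.03, SD, n = 5 each, two-sided exact permutation p = 0.00794) and in the actin spots, as the signal at the 3′ end less that at the 5′ end, a measure of transcript integrity (0.65 ± 0.09 against 1.55 ± 0.29, exact permutation p = 0.00794, the smallest value possible with 5 against 5). The same measure on the GAPDH spots went the other way, with 0.05 ± 0.10 in RCS and -0.10 ± 0.04 in control (SD, n = 5 each, exact permutation p = 0.0238). Within RCO, replicates 2 and 3 had actin values of 0.78 and 0.79, near the RCS range of 0.51 to 0.73. RCO replicates 1, 4 and 5 had 1.36, 1.69 and 1.12. On the GAPDH spots RCO replicates 1 to 5 had -0.23, 0.08, -0.07, -0.04 and -0.14, so that replicate 4 lay between replicates 2 and 3. The spike-in signal was lowest within RCO in replicates 2 and 3 (10.52 and 10.53), against 11.09, 10.65 and 10.59 in replicates 1, 4 and 5. The part of these array properties in the results below was not tested. The defining markers of cardiac muscle were near the top of the signal range in every group, with a mean over 9 genes of 13.55 to 14.02 on RCS arrays, 13.99 to 14.17 in RCO, 14.19 to 14.3 in SWOP and 14.23 to 14.3 in control.

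TNC transcript was high in RCS, high in some RCO hearts and low in SWOP and control hearts. On its probe set (Ssc.16209.1.S1_at) RCS replicates 1 to 5 had log2 signals of 9.76, 11.5, 11.48, 10.59 and 9.92. RCO replicates 1 to 5 had 7.12, 11.87, 11.14, 9.04 and 7.9. Every RCS array thus lay far above the SWOP and control arrays, while RCO ran from just above the control range to the highest TNC signal of the series, in RCO replicate 2. SWOP replicates 1 to 5 had 6.64, 6.68, 7.2, 7.33 and 6.12, and control replicates 1 to 5 had 6.22, 6.04, 6.25, 6.07 and 6.59. SWOP and control overlapped, because SWOP replicate 5 fell inside the control range and control replicate 5 lay close to the lower SWOP arrays.

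The group means of TNC were 10.65 ± 0.83 in RCS, 9.41 ± 2.04 in RCO, 6.79 ± 0.49 in SWOP and 6.23 ± 0.22 in control (SD, n = 5 each), in that order from high to low. RCS stood 4.42 ± 0.64 (limma standard error) above control on the log2 scale, a 21.3-fold difference, and the lowest RCS array exceeded the highest control array by 3.17. RCO stood 3.18 ± 0.64 above control (9.06-fold), and here the gap between the nearest arrays was 0.53. SWOP stood 0.56 ± 0.64 above control, with 4 of 5 SWOP arrays above every control. This standard error pools all 4 groups and so carries the wide spread of RCO, whereas SWOP and control themselves had SDs of 0.49 and 0.22. RCS and RCO did not differ beyond their spread, at 1.24 ± 0.64 with all 5 RCS arrays inside the RCO range. Between RCO and SWOP the means differed by 2.62 ± 0.64, with RCO replicate 1 inside the SWOP range. The spread of TNC in RCO, 4.75 from lowest to highest array or 26.91-fold, exceeded the difference between the RCS and control means.

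POSTN was already well detected in control hearts on its brighter probe set (Ssc.7266.1.A1_at) and its mean signal was higher in the order SWOP, RCO, RCS. RCS replicates 1 to 5 had 12.33, 13.09, 12.82, 12.4 and 12, and RCO replicates 1 to 5 had 10.03, 12.06, 12.3, 11.26 and 10.72. SWOP replicates 1 to 5 had 9.89, 10.22, 10.05, 10.4 and 10.54, and control replicates 1 to 5 had 9.69, 7.88, 10.16, 9.27 and 9.4. RCS was clear of SWOP and control, whereas RCO replicate 1 and the lower SWOP arrays lay among the upper controls. Control replicate 2, at 7.88, was the lowest POSTN array of the series.

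Mean POSTN signal was 12.53 ± 0.43 in RCS, 11.27 ± 0.94 in RCO, 10.22 ± 0.26 in SWOP and 9.28 ± 0.85 in control (SD, n = 5 each). The RCS difference from control was 3.25 ± 0.39 (SE), or 9.5-fold, with a gap of 1.84 between the nearest arrays. The RCO difference was 1.99 ± 0.39 (3.98-fold), with 4 of 5 RCO arrays above every control. The SWOP difference was 0.94 ± 0.39 (1.92-fold), with 3 of 5 SWOP arrays above every control, and it was 0.59 when control replicate 2 was left out. Each group overlapped its neighbour in this order, so that only groups further apart were separated: RCS stood 2.31 ± 0.39 above SWOP without overlap, but 1.25 ± 0.39 above RCO with 4 of 5 RCS arrays above the highest RCO array.

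The dimmer POSTN probe set (Ssc.7969.1.A1_at) gave the same order at lower signal. Its RCS arrays read 4.54, 7.12, 6.31, 4.92 and 5.17 (replicates 1 to 5) and its RCO arrays 3.83, 4.67, 4.49, 3.91 and 4.06. SWOP arrays ranged from 3.55 to 3.92 and control arrays from 3.5 to 3.87. All RCO, SWOP and control arrays lay below the 30th percentile of signal (5.48), as did 3 RCS arrays, with group means of 5.61 ± 1.07 in RCS, 4.19 ± 0.37 in RCO, 3.78 ± 0.14 in SWOP and 3.65 ± 0.14 in control. RCS replicates 2 and 3 were the highest on both POSTN probe sets, and so were RCO replicates 2 and 3. Differences from control were 1.96 ± 0.33, 0.54 ± 0.33 and 0.13 ± 0.33 (SE) for RCS, RCO and SWOP.

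CILP, on its brighter probe set (Ssc.14477.1.S1_at), was highest in RCS, then RCO, then SWOP, then control. RCS replicates 1 to 5 had 11.11, 12.37, 12.46, 12.36 and 12.29, and RCO replicates 1 to 5 had 10.07, 11.69, 12.37, 11.31 and 10.81. SWOP replicates 1 to 5 had 9.05, 9.48, 10.42, 10.27 and 9.99, against 8.19, 8.68, 9.54, 7.63 and 7.85 in control replicates 1 to 5. Both RCS and RCO were clear of control, and 3 of 5 SWOP arrays were too, with control replicate 3 reaching into the SWOP range. RCS replicate 1 lay apart from the other 4 RCS arrays, which were close together.

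Mean CILP signal was 12.12 ± 0.57 in RCS, 11.25 ± 0.87 in RCO, 9.84 ± 0.57 in SWOP and 8.38 ± 0.76 in control (SD, n = 5 each). The differences from control were 3.74 ± 0.40 in RCS (13.4-fold), 2.87 ± 0.40 in RCO (7.32-fold) and 1.46 ± 0.40 in SWOP (2.76-fold). RCS exceeded SWOP by 2.28 ± 0.40 without overlap and RCO by 0.87 ± 0.40 with overlap, and RCO exceeded SWOP by 1.41 ± 0.40 with overlap. All SWOP arrays exceeded the control mean for both CILP and POSTN, whereas 4 of 5 did for TNC.

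The dimmer CILP probe set (Ssc.14477.1.A1_at) did not follow. Its arrays ranged from 5.75 to 6.33 in RCS, 5.8 to 6.44 in RCO, 5.92 to 6.17 in SWOP and 6.1 to 6.33 in control, so that all 4 groups overlapped. Differences from control were -0.19 ± 0.11, -0.11 ± 0.11 and -0.13 ± 0.11 (SE) for RCS, RCO and SWOP. The platform table assigns both CILP probe sets to the same sequence entry and gives no probe positions, so which part or strand of the transcript each one reads is not known here. All statements on CILP below refer to the brighter probe set.

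**Figure D1:**
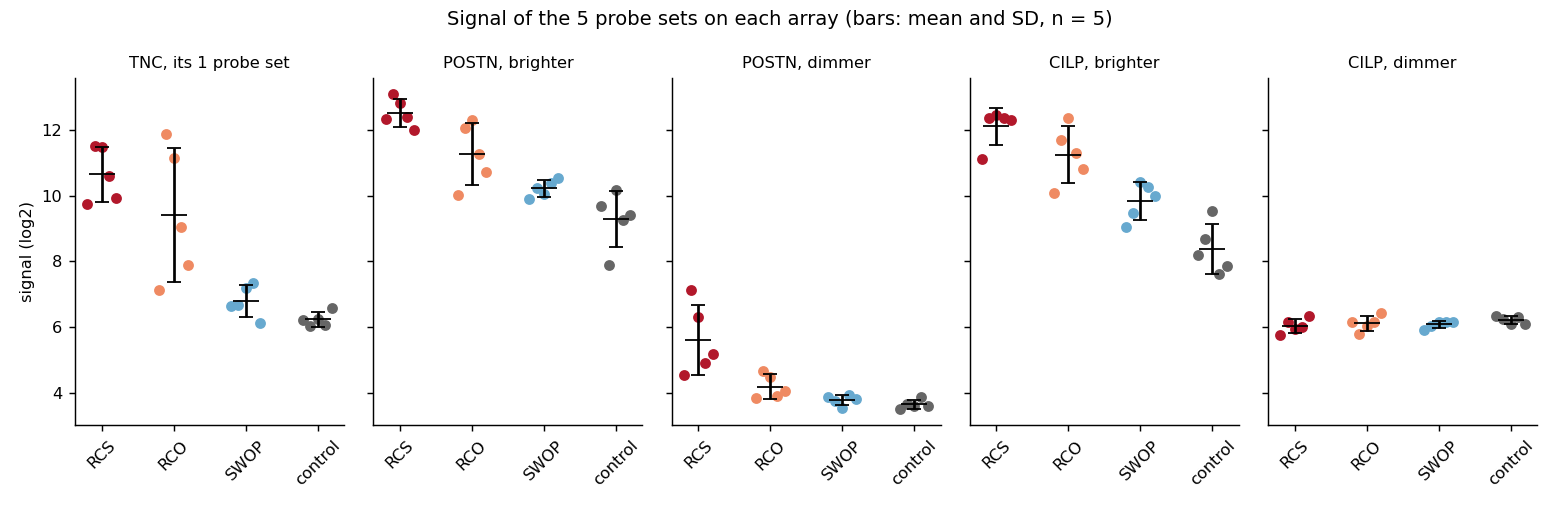
Log2 signal of the 5 probe sets on each of the 20 arrays (vertical axis, log2), by group in the order RCS, RCO, SWOP and control. Points are animals, the long bar is the group mean and the whiskers are 1 SD (n = 5). TNC, the brighter POSTN and the brighter CILP probe set are highest in RCS and lowest in control, with RCO widest for TNC, and the dimmer CILP probe set stays between 5.75 and 6.44.

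Against control, RCS was past the limma threshold (Benjamini-Hochberg adjusted p below 0.05 over all probe sets) on 4 of 5 probe sets, where 47.5% of all probe sets were past it. In RCO 3 of 5 probe sets were past it, against 10.7% of all, and in SWOP 1 of 5, CILP, against 7.15% of all. Since the genes were chosen on these contrasts, nothing is read from these counts. Groups without any overlap and higher than control were found for 14.8% of all probe sets in RCS and 2.88% in RCO, and groups without overlap and higher in RCS than in SWOP for 12.0% of all probe sets. Between protocols, 4 of 5 probe sets passed in RCS against SWOP (29.1% of all), 2 of 5 in RCO against SWOP (10.1% of all) and 2 of 5 in RCS against RCO (19.1% of all). In RNA from bulk heart tissue, more cells of a type and more RNA per cell cannot be told apart, and this holds for every value given here.

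The SWOP and RCO differences from control were also expressed as shares of the RCS difference, gene by gene. The SWOP difference from control amounted to 12.7% of the RCS difference for TNC, 28.9% for POSTN and 39% for CILP, all on the log2 scale. For RCO the shares were closer to each other, at 71.9%, 61.2% and 76.7%. In SWOP the share was thus highest for CILP and lowest for TNC. The SWOP differences behind these shares were 0.56 ± 0.64 for TNC, 0.94 ± 0.39 for POSTN and 1.46 ± 0.40 for CILP (SE). No error was attached to these shares, the genes were not tested against each other, and all shares rest on the same control arrays. SWOP and RCS also differ in the kind of ischemia, so the shares do not isolate the number of sessions.

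**Figure D2:**
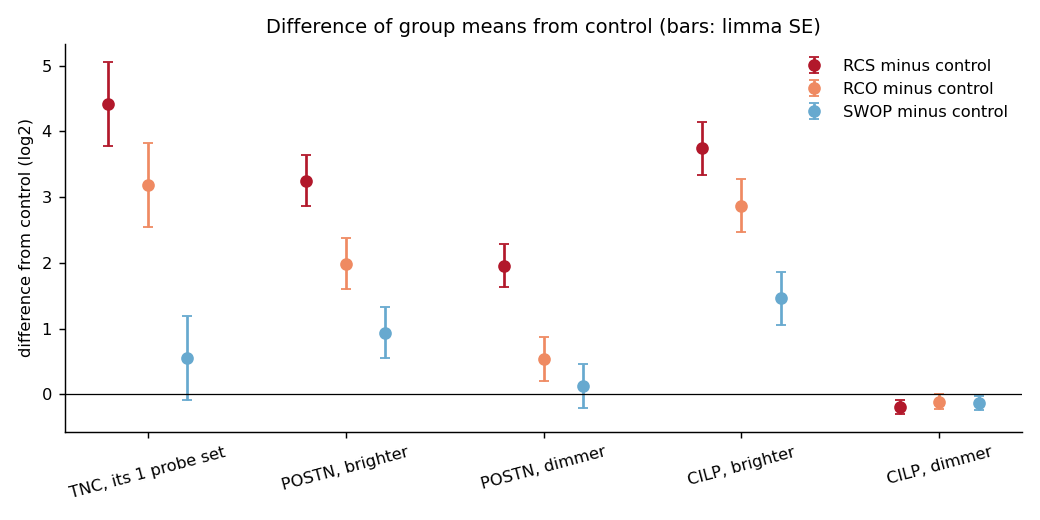
Difference of each group mean from the control mean (vertical axis, log2) for the 5 probe sets, with limma standard errors as bars and RCS, RCO and SWOP side by side. RCS lies highest for TNC (4.42), POSTN (3.25 on the brighter probe set) and CILP (3.74 on the brighter probe set), and the dimmer CILP probe set lies at or just below 0.

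Within RCO and RCS, the same animals tended to be high for all 3 genes. In RCO the order of animals from high to low was 3, 2, 4, 5, 1 for POSTN and for CILP, and 2, 3, 4, 5, 1 for TNC. RCO replicates 2 and 3 were also the lowest RCO arrays on the actin measure and the spike-in signal given above. Their scores on the leading principal component, which spans all probe sets, were the highest in RCO. The part of these array properties here was not tested. RCO replicate 2 lay 2.46 above the RCO mean for TNC, 0.79 above for POSTN and 0.44 above for CILP, and RCO replicate 1 lay below it for all 3, by -2.29, -1.24 and -1.18. In RCS replicates 2 and 3 were again the highest for all 3 genes, while replicate 1 was the lowest for TNC and CILP and replicate 5 for POSTN. The order was less alike in SWOP, where the highest animal was replicate 4 for TNC, 5 for POSTN and 3 for CILP. SWOP replicate 5, highest for POSTN, was lowest for TNC. In control replicate 3 was highest for POSTN and CILP and replicate 5 for TNC.

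Deviations of the 20 arrays from their group means correlated at r = 0.72 between TNC and POSTN, 0.63 between TNC and CILP and 0.56 between POSTN and CILP (Spearman rho 0.75, 0.70 and 0.55). On 11 of 20 arrays all 3 genes lay on the same side of their group mean, 4 of 5 in RCO, 3 of 5 in RCS, 2 of 5 in SWOP and 2 of 5 in control. These coefficients are a description of 20 arrays, since genes on 1 array share its RNA and its hybridization, and for TNC the largest deviations are those of RCO. No background over other genes is given for the coefficients or for the 11 arrays, so neither sets these genes apart. Leaving out RCO replicates 2 and 3, the RCO difference from control was 1.79 for TNC, 1.39 for POSTN and 2.35 for CILP, and the difference of RCS from RCO was 2.63, 1.86 and 1.39. TNC is therefore the gene whose RCO level rests most on those arrays.

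**Figure D3:**
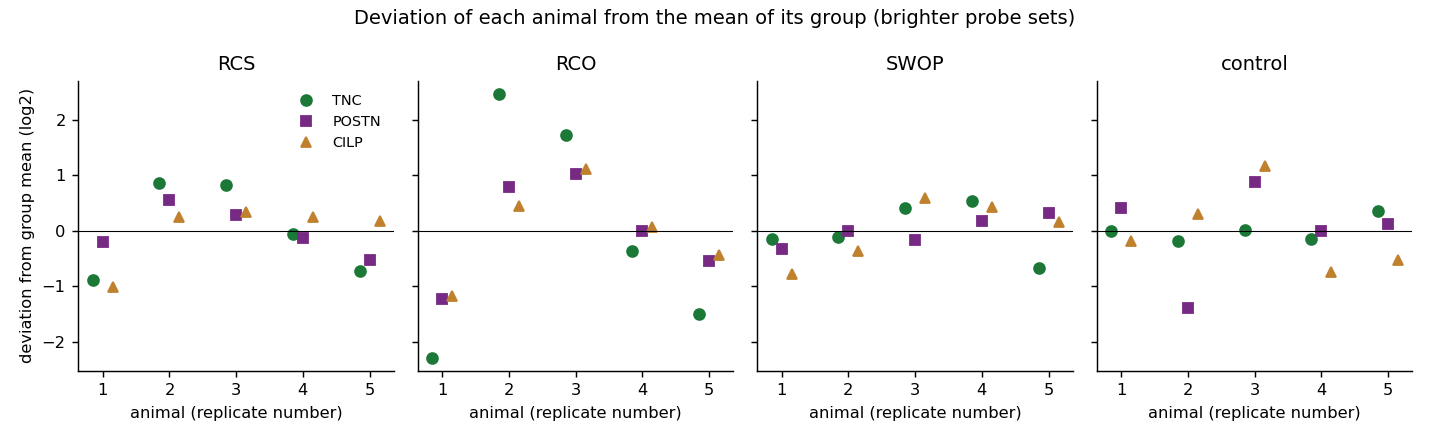
Deviation of each animal from the mean of its own group (vertical axis, log2) for TNC, POSTN and CILP on the brighter probe sets, with 1 panel per group and the replicate number on the horizontal axis. In RCO, replicates 2 and 3 lie above and replicates 1 and 5 below the mean for all 3 genes, most widely for TNC (2.46 in replicate 2 and -2.29 in replicate 1).

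Cell type markers were set beside these values as mean log2 signals over each list, and calls are counted with 1 probe set per gene. Over all 6765 genes limma called 54.5% in RCS against control (28.8% higher and 25.7% lower), 15.6% in RCO (11.3% higher and 4.26% lower) and 8.16% in SWOP (4.66% higher and 3.5% lower), and the marker and pathway counts are read against these shares. Fibroblast markers (10 of 13 measured) ranged from 10.29 to 10.87 on RCS arrays, 9.32 to 10.84 in RCO, 9.61 to 9.89 in SWOP and 9.28 to 9.91 in control. Myofibroblast markers (6 of 8) ranged from 9.55 to 10.22 in RCS, 8.64 to 9.98 in RCO, 8.54 to 9.13 in SWOP and 8.27 to 8.8 in control. In RCO these lists split the animals as the 3 genes did, with fibroblast means of 10.84 and 10.65 in replicates 2 and 3 and 9.32, 10.12 and 9.8 in replicates 1, 4 and 5. Not all fibroblast markers moved: in RCS against control 6 of 10 rose and 0 fell, among them the surface glycoprotein THY1 (1.89 ± 0.26 SE, limma adjusted p = 1.8e-05), while the matrix proteoglycan DCN (-0.09 ± 0.15), the growth factor receptor PDGFRB (0.33 ± 0.23) and the transcription factor TCF21 (0.26 ± 0.25) did not pass. In RCO 3 of 10 rose (THY1, LUM and S100A4), and in SWOP limma called 0 of 10, with 3 at an unadjusted p below 0.05. The contractile protein CNN1, on the myofibroblast and smooth muscle lists, rose in all 3 groups, by 1.92 ± 0.24 in RCO and 1.49 ± 0.24 in SWOP (adjusted p = 0.0002 and 0.0065).

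Macrophage and monocyte markers (6 of 10 measured) ranged from 7.99 to 8.39 in RCS, 7.61 to 9.02 in RCO, 7.03 to 7.76 in SWOP and 7.08 to 7.64 in control, with RCO replicates 2 and 3 at 9.02 and 8.42. In RCS 3 of 6 rose, the microglial and macrophage protein AIF1, the Fc receptor chain FCER1G and the scavenger receptor CD163, while CD14, ITGAM and MRC1 did not pass. Smooth muscle and pericyte markers (5 of 8) ranged from 10.77 to 11.29 in RCS, 10.56 to 11.04 in RCO, 10.51 to 10.96 in SWOP and 10.08 to 10.43 in control. Of these 5 genes 3 rose and 1 fell in RCS, 1 rose in RCO (CNN1) and 2 rose in SWOP. The median differences from control were 0.79, 0.42 and 0.16, so the list mean does not stand for every marker. Desmin, also on this list, is a cardiac muscle protein as well.

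Cartilage and tendon markers (4 of 9), set here because CILP was described in cartilage, ranged from 6.19 to 6.57 in RCS, 6.34 to 6.62 in RCO, 6.06 to 6.26 in SWOP and 6.3 to 6.53 in control. The cartilage regulator SOX9 was dim in RCS and in control (4.52 ± 0.07 against 4.72 ± 0.17, SD) and did not pass, and neither did the cartilage collagen COL2A1. The cartilage proteoglycan ACAN fell in RCS (-0.33, limma adjusted p = 0.0067), and COMP, a thrombospondin of cartilage and tendon that is also on the list of other matricellular genes, rose in RCO (0.57, adjusted p = 0.027) and did not pass in RCS (0.38, adjusted p = 0.054). Endothelial markers (8 of 8) ranged from 7.95 to 8.48 in RCS and 8.28 to 8.4 in control, and limma called 0 of 8 in that comparison, with 1 at an unadjusted p below 0.05. RCO arrays ranged from 7.65 to 8.34 for this list, and von Willebrand factor (VWF) fell there on its brightest probe set (-0.95 ± 0.29, adjusted p = 0.041), with the other 2 at -0.1 and -0.04. Epicardial markers (3 of 6) ranged from 5.69 to 6.28 in RCS and 5.7 to 6.19 in control. Of 9 cardiac muscle markers 7 fell in RCS, with differences of -1.22 to -0.29 (log2), and 1 fell in RCO, cardiac actin (ACTC1, -0.41 ± 0.08, adjusted p = 0.0036). The part of any cell type in the levels of TNC, POSTN and CILP was not tested.

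**Figure D4:**
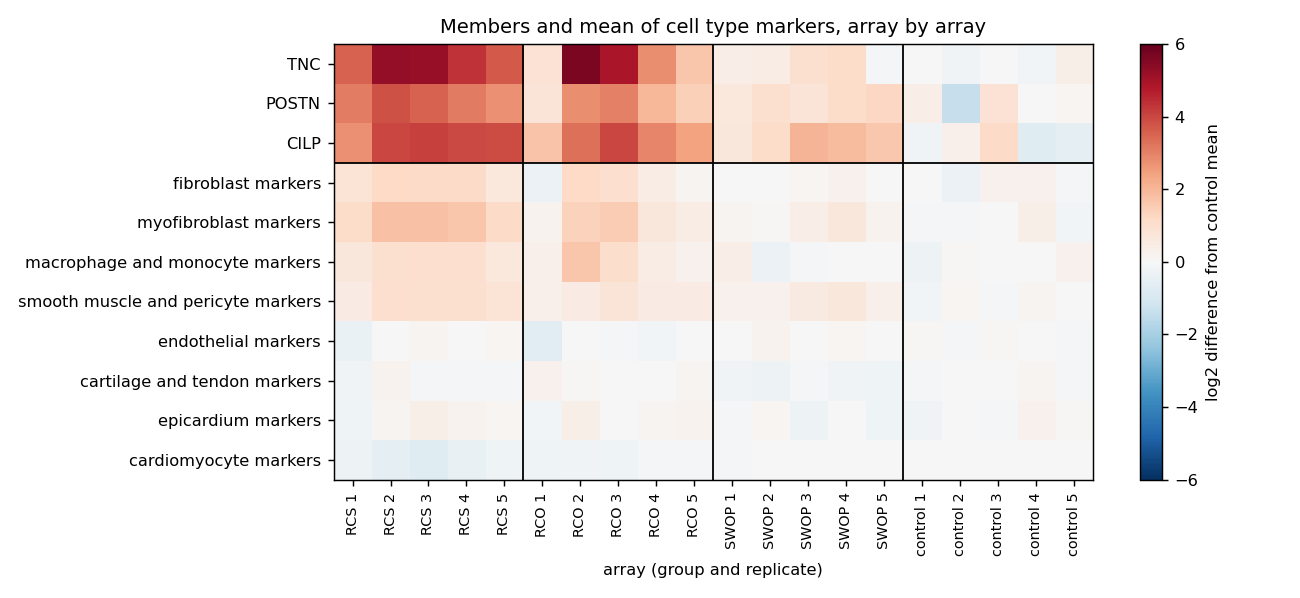
Difference of each array (columns, by group and replicate) from the control mean, on a log2 colour scale (blue below, red above), for TNC, POSTN and CILP on the brighter probe sets and for the mean of 8 marker lists. The bands of fibroblast, myofibroblast and macrophage markers are red on the RCS arrays and on RCO replicates 2 and 3. Some other arrays also lie above the control mean, as for myofibroblast markers RCO replicate 4 and SWOP replicate 4 (9.13 each, control mean 8.45). The smooth muscle and pericyte mean lies above the highest control array (10.43) on every RCS, RCO and SWOP array (lowest 10.77, 10.56 and 10.51). Of its 5 genes limma called 1 in RCO and 2 in SWOP, with median differences of 0.42 and 0.16. The endothelial band is lowest on RCO replicate 1 (mean signal 7.65, against 8.28 to 8.4 on control arrays).

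Of the list of receptors and matrix partners of TNC and periostin, 19 of 28 genes were measured, counting 1 probe set per gene. Not every product on this list binds the 2 proteins, RHOA being an intracellular signalling protein. In RCS against control 10 rose, 4 fell and 5 did not pass, with a median difference of 0.59 against 0 over all genes. In RCO 4 rose (BMP1, CCDC80, RHOA and ANXA2), 1 fell (ITGB5) and 14 did not pass. In SWOP 1 rose (BMP1), 1 fell and 17 did not pass. The SWOP fall was that of SDC1, a heparan sulfate proteoglycan that binds tenascin C (7.59 ± 0.08 against 8.04 ± 0.11 in control, SD, limma adjusted p = 0.013), and SDC1 fell in RCS as well (-0.62 ± 0.10 SE, adjusted p = 5.3e-05). The other 3 SDC1 probe sets did not pass in either group, with differences of 0.04 to 0.43 in RCS, so its fall rests on a single probe set. The integrin chains behaved unequally. ITGAV, the alpha chain of the vitronectin receptors that bind both proteins, rose in RCS (10.85 ± 0.26 against 10.09 ± 0.17 in control, SD, 0.76 ± 0.13 SE, limma adjusted p = 0.00018), as did the common beta chain ITGB1 (0.77 ± 0.16, adjusted p = 0.0007). ITGB5, a partner chain of ITGAV, fell in RCS (9.75 ± 0.06 against 10.15 ± 0.11, -0.39 ± 0.07, adjusted p = 0.00018) and in RCO (9.78 ± 0.12, -0.37 ± 0.07, adjusted p = 0.003). ITGB3, another partner of ITGAV, stood at 0.48 ± 0.22 in RCS and did not pass (adjusted p = 0.085), and neither did ITGA8 (-0.29 ± 0.18, adjusted p = 0.19), a TNC receptor chain.

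TLR4, the innate receptor for tenascin C, rose in RCS (8.01 ± 0.24 against 7.42 ± 0.24 in control, SD, limma adjusted p = 0.014), and EGFR, which recognises its EGF-like repeats, did not pass (0.02 ± 0.17, adjusted p = 0.93). Of the other 4 TLR4 probe sets 3 rose in RCS, by 1.34 to 1.87, and 1 fell (-0.27, adjusted p = 0.015). The adhesion glycoprotein FN1, bound by both TNC and periostin, rose in RCS (13.45 ± 0.46 against 10.49 ± 0.49, 2.96 ± 0.51, adjusted p = 0.00016). Of the 3 other FN1 probe sets 1 rose (3.72) and 2 did not pass (0 and -0.08). In RCO the spread of FN1 was wide (12.07 ± 1.68) and the difference of 1.58 ± 0.51 did not pass (adjusted p = 0.054). BMP1, the procollagen proteinase that periostin presents, rose in all 3 groups, by 1.14 ± 0.17 in RCS, 0.67 ± 0.17 in RCO and 0.69 ± 0.17 in SWOP (adjusted p = 2.9e-05, 0.014 and 0.021), and its other probe set passed in RCS and RCO but not in SWOP (adjusted p = 0.13). The SWOP call of BMP1 ended when SWOP replicate 4, SWOP replicate 5 or control replicate 4 was left out (adjusted p = 0.06, 0.05 and 0.053). The lysyl oxidase LOX rose in RCS (1.65 ± 0.50, adjusted p = 0.011) and stood at 1.03 ± 0.50 in RCO (adjusted p = 0.19). Its other probe set fell in RCS (-0.31, adjusted p = 0.018), so that the LOX probe sets disagree in direction.

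Of 17 measured genes of the transforming growth factor beta and insulin-like growth factor pathways (of 31 listed), 5 rose, 4 fell and 8 did not pass in RCS, with a median difference of 0.08. The share called, 52.9%, was near the 54.5% of all genes. TGFB1, a ligand that CILP binds, rose in RCS (8.95 ± 0.33 against 8.11 ± 0.08 in control, SD, limma adjusted p = 0.0012) but stood at 0.08 ± 0.18 in RCO and 0.02 ± 0.18 in SWOP, where it did not pass. TGFB3 rose in RCS by 1.30 ± 0.28 on its brighter probe set (adjusted p = 0.001), and its other probe set did not pass (adjusted p = 0.081). The receptor TGFBR1 rose by 1.32 ± 0.14 (adjusted p = 2.3e-06), with 1 of its 2 other probe sets rising (0.70) and 1 not passing (-0.28). The activin antagonist FSTL3 rose by 1.37 ± 0.17 (adjusted p = 7.1e-06), and IGFBP5, an insulin-like growth factor binding protein, fell (-1.46 ± 0.30, adjusted p = 0.00062).

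IGF1, the other ligand of CILP, stood at 0.18 ± 0.18 in RCS on its brightest probe set and did not pass (limma adjusted p = 0.42), while its other probe sets passed in opposite directions, at 0.89 and -0.51 (adjusted p = 0.024 and 0.00018). The direction of IGF1 is thus not settled by this array. Its receptor IGF1R fell in RCO on both probe sets (-0.85 and -0.47, adjusted p = 0.003 and 0.035) and in RCS on both (-0.40 and -0.43, adjusted p = 0.046 and 0.014). In RCO 1 of the 17 genes rose (TGFBR1, 0.53 ± 0.14, adjusted p = 0.024) and 1 fell (IGF1R), and in SWOP limma called 0 of 17, with 3 at an unadjusted p below 0.05.

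Other matricellular genes were measured for 12 of 26 listed. In RCS 7 rose, 2 fell and 3 did not pass (median 0.78), in RCO 4 rose, 1 fell and 7 did not pass (median 0.60), and in SWOP limma called 0 of 12, with 0 at an unadjusted p below 0.05 (median 0.09). SPP1, osteopontin, had the largest difference of the list (13.66 ± 0.35 in RCS against 7.92 ± 0.86 in control, SD, limma adjusted p = 2.8e-06), and its level on these arrays was known when the list was made. The thrombospondins THBS2 and THBS3, which regulate collagen assembly and matrix secretion, rose in RCS by 2.27 ± 0.45 and 1.32 ± 0.31 (adjusted p = 0.0005 and 0.0021), and the collagen-binding SPARC by 0.78 ± 0.18 (adjusted p = 0.0018). TNXB, a tenascin of loose connective tissue and a paralog of TNC, went the other way, with 8.26 ± 0.37 in RCS, 8.83 ± 0.43 in RCO and 9.61 ± 0.27 in control (adjusted p = 3.5e-05 in RCS and 0.017 in RCO). The SPARC paralog SPARCL1 also fell in RCS (-0.59 ± 0.15, adjusted p = 0.0039). The other probe sets of SPARC (-0.07) and SPARCL1 (-0.19) did not pass, and of the other 2 of THBS3 1 rose (1.37) and 1 fell (-0.3, adjusted p = 0.01). The matricellular gene CCN1 stood at 0.53 ± 0.48 in RCS and did not pass (adjusted p = 0.38), with a control SD of 1.4.

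Fibrillar collagens, small proteoglycans and cross-linking enzymes were measured for 15 of 25 listed genes, and in RCS 12 rose, 0 fell and 3 did not pass (median 1.24). The lists share genes, so their counts are not independent. DCN, LUM, COL1A2 and COL3A1 are also fibroblast markers, and FN1, COL5A1 and LOX are also on the list of partners. LOXL1, a lysyl oxidase of elastic fibres, rose by 2.37 ± 0.31 (limma adjusted p = 1.2e-05), and the proteoglycans BGN and LUM by 1.83 ± 0.25 and 1.74 ± 0.26 (adjusted p = 1.9e-05 and 3.5e-05). The collagen chaperone SERPINH1 rose by 1.30 ± 0.19 (adjusted p = 2.7e-05). In RCO 6 of 15 rose and 0 fell, LOXL1 at 1.53 ± 0.31 (adjusted p = 0.0047), and in SWOP limma called 0 of 15, with 4 at an unadjusted p below 0.05. Of 19 measured proteases and inhibitors (26 listed), 9 rose, 4 fell and 6 did not pass in RCS, 4 rose in RCO (CTSS, CTSB, PLAU and TIMP1), and 2 fell in SWOP (MMP3 and TIMP3). The cathepsins CTSS and CTSB rose in RCS by 2.12 ± 0.25 and 1.45 ± 0.19 (adjusted p = 4.1e-06 and 1.4e-05), and so did the inhibitor TIMP1 (2.75 ± 0.51, adjusted p = 0.00031). MMP3, a metalloproteinase of the matrix, had 4 probe sets, of which the brightest was dim in every group (4.45 ± 0.09 in RCS, 4.71 ± 0.14 in RCO, 4.5 ± 0.19 in SWOP and 4.83 ± 0.12 in control, SD). Its SWOP call (adjusted p = 0.042) was lost in 11 alternatives, among them quantile normalization (adjusted p = 0.13), centring (0.066) and the omission of any of 8 single arrays, and its other 3 probe sets did not pass. TIMP3, a matrix-bound inhibitor, stood at 8.02 in SWOP against 8.91 in control (-0.89 ± 0.21, adjusted p = 0.018), and leaving out SWOP replicate 2 or control replicate 4 ended the call (adjusted p = 0.052 each).

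The RCO calls of these lists depended on the fit and on RCO replicates 2 and 3. When only RCO and control were fitted, so that RCO supplied its own spread, 1 of 12 other matricellular genes, 0 of 19 partners, 1 of 17 growth factor genes, 0 of 15 collagen genes and 0 of 19 proteases were called, and without RCO replicates 2 and 3 the count was 1 in each list. Of the RCO calls named, those of SPP1 and IGF1R held under every alternative run. Those of LOXL1, CTSS and ITGB5 were lost only when RCO and control alone were fitted (adjusted p = 0.051, 0.076 and 0.051). THBS2, TIMP1, CTSB and ANXA2 lost their RCO call without RCO replicate 2 or without RCO replicate 3 (adjusted p between 0.08 and 0.13), but also without any single control array for THBS2, CTSB and ANXA2 and without control replicate 1, 2, 3 or 5 for TIMP1. TGFBR1 lost it without RCO replicate 2 or 3 or control replicate 2 or 5 (adjusted p between 0.055 and 0.067), COMP without RCO replicate 2 or control replicate 2 (0.058 and 0.068), and LUM and PLAU without RCO replicate 3 (0.064 and 0.058) or control replicate 2 (0.059 and 0.054).

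**Figure D5:**
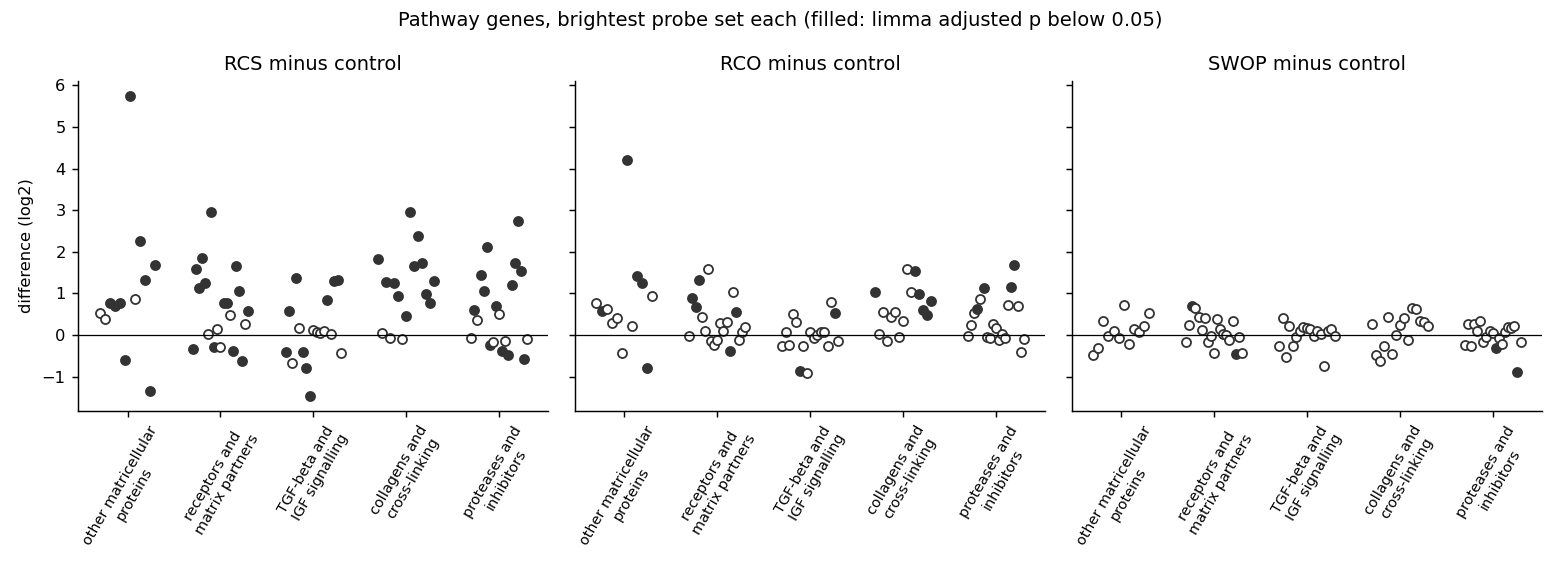
Difference from control (vertical axis, log2) of the measured genes of 5 lists (horizontal axis), 1 point per gene on its brightest probe set, with a panel each for RCS, RCO and SWOP. Filled points passed limma at an adjusted p below 0.05. The highest point, at 5.74 in RCS, is SPP1, and most collagen genes lie above 0 in RCS.

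The genes whose signal followed each member most closely over the 20 arrays were ranked by Pearson correlation among 5816 other genes. For TNC they were FKBP10 (r = 0.979), TMEM45A (0.976), CSRP2 (0.975), LAPTM5 (0.975) and CKAP4 (0.974). POSTN was followed most closely by LUM (0.969), TUBA1B (0.969), THY1 (0.965), KDELR3 (0.964) and SURF4 (0.96). CILP was followed by LOXL1 (0.936), COL8A1 (0.934), REXO2 (0.93), SERPINE2 (0.923) and CD151 (0.921). These coefficients span all 4 groups, so they include the differences between groups, and many genes had high ones: 289 genes correlated above 0.9 with TNC, 187 with POSTN and 29 with CILP, although the median coefficient over all ranked genes was 0.02, 0.05 and 0.05. The order among the closest genes was not stable: of the 5 named, TNC kept 2 by Spearman correlation, 3 after quantile normalization and 2 without RCO replicates 2 and 3, POSTN kept 2, 4 and 4, and CILP kept 3, 4 and 2. All of the named genes stayed among the 50 closest in these alternatives. The members were not each other's closest genes. POSTN ranked 208 and CILP 311 for TNC, TNC ranked 97 and CILP 159 for POSTN, and POSTN and TNC ranked 22 and 39 for CILP. These ranks depended on the measure. By Spearman correlation they were 139 and 38 for TNC, 117 and 14 for POSTN, and 15 and 27 for CILP, in the same order of genes.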

How the data were processed

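Per the labels' protocols, total RNA from 20 pig hearts was extracted with Trizol, labelled with biotin and hybridized to an Affymetrix array. The log2 signals were made by the authors before they were deposited, with RMA and MAS5 per the submitters' processing notes, which give no version or role. Log base 2 was inferred from the range of 3.22 to 15.18. Of 24123 probe sets, 124 control spots were left out. The platform table gave 1 symbol to 10069 probe sets, several to 198 and none to 13732. Lists used the probe set of highest mean signal per gene, with 121 of 193 listed genes measured, 1 under an older symbol.

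In R 4.3.3, limma 3.58.1 (functions lmFit and eBayes) fitted 4 group means to all 20 arrays, leaving 16 residual degrees of freedom. Adjusted p-values were taken over all 23999 probe sets per comparison and come from limma. The limma p-values rest on the spread between the 5 pigs of a group, pooled over all 4 groups and not taken from the 2 groups compared. Array properties were compared with exact permutation tests over animals. The limma procedure was tested on simulated arrays of independent noise with equal spread in all 4 groups, for RCS against control only. That simulation does not cover the unequal spread of RCO. The members, the gene lists and the naming rule were chosen with earlier results of these data known. The rule named all member probe sets, the 5 genes most correlated with each member (symbols that are not locus names, highest group mean above the 30th percentile), up to 5 members of smallest p per list and comparison, and direct ligands or receptors. A part of these is given, with a few further list members that were chosen after their values were seen. Alternatives were other normalization, centring, filter, spread, weights, replicate block, groups fitted, probe sets, fold limit and arrays left out. Python 3.11.15 was used for tables and figures.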

Additional observations from a re-analysis of the deposited data

Results flagged for a closer look

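In groups of 5, a highest or lowest array was marked when its gap to the nearest other array took up more than 0.710 of the group's range (Dixon's test), which chance alone does in about 1 in 20 groups. Of 296 groups checked (74 genes, probe sets or list means in 4 groups each) 16 were marked, about the number that chance gives. Of the 3 members, CILP in RCS replicate 1 was marked, at 11.11 against 12.29 on the next array. Without that array the RCS difference from control was 3.99. RCS replicate 1 was also marked low for EGFR (7.25) and for the endothelial markers (7.95). SWOP replicate 1, one of the arrays of high spike-in signal, was marked low for BMP1 (8.25), COL5A1 (9.62), THBS2 (8.64) and TNXB (9.35). RCO replicate 1, the other such array, was marked low for the endothelial markers (7.65). Control replicate 4 was marked high for TIMP1 (10.28) and for the mean of the protease and inhibitor list (8.02). Single marks were FN1 in SWOP replicate 2 (10.69, low), EGFR in SWOP replicate 3 (7.89, high), ITGA5 in SWOP replicate 2 (10.39, high), ITGA2 in RCO replicate 5 (4.54, high), TLR4 in RCS replicate 5 (7.59, low) and the cartilage and tendon list in RCS replicate 2 (6.57, high).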

How the results depend on the processing

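The differences of TNC, POSTN and CILP kept their direction on the brighter probe sets under all alternatives run. Without RCO replicates 2 and 3, TNC had 1.79 in RCO against control, 1.23 in RCO against SWOP and 2.63 in RCS against RCO, POSTN 1.39, 0.45 and 1.86, and CILP 2.35, 0.89 and 1.39. TNC has no second probe set. On the dimmer probe set POSTN stood at 1.96 (RCS), 0.54 (RCO) and 0.13 (SWOP) against control and 1.83 in RCS against SWOP. CILP there had -0.19, -0.11 and -0.13 against control, -0.06 in RCS against SWOP, -0.08 in RCS against RCO and 0.02 in RCO against SWOP. The mean of both CILP probe sets gave 1.78, 1.38 and 0.67 against control and 1.11 in RCS against SWOP. The cause was not tested. Leaving out 1 array at a time gave 4.2 to 4.64, 2.57 to 3.75 and 0.43 to 0.73 for TNC in RCS, RCO and SWOP against control, 2.9 to 3.47, 1.64 to 2.31 and 0.59 to 1.16 for POSTN, and 3.55 to 4.03, 2.59 to 3.17 and 1.28 to 1.75 for CILP. For RCS against SWOP, RCO against SWOP and RCS against RCO it gave 3.64 to 4.08, 2.01 to 3.19 and 0.66 to 1.85 for TNC, 2.17 to 2.44, 0.8 to 1.36 and 0.94 to 1.51 for POSTN, and 2.08 to 2.53, 1.13 to 1.7 and 0.57 to 1.15 for CILP.

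Counts of list calls in RCO and SWOP varied, while those in RCS against control stayed within 1.5 times. The lists are named in the order other matricellular genes, partners, growth factor genes, collagens, proteases, and had 5, 5, 2, 6 and 4 calls in RCO and 0, 2, 0, 0 and 2 in SWOP. With only 2 groups fitted there were 1, 0, 1, 0 and 0 calls in RCO and 1, 5, 2, 5 and 4 in SWOP. Without RCO replicates 2 and 3 each list had 1 call in RCO. Array weights gave 7 proteases in RCO and 2, 7, 2, 6 and 4 calls in SWOP. Without both arrays of high spike-in signal, a choice made after seeing the data, RCO had 4 growth factor genes and 7 proteases, and SWOP 2 and 1. Without dim probe sets RCO had 4 growth factor genes and SWOP 1 protease. A 1.5-fold limit left 3 partners and 1 growth factor gene in RCO and 1 partner and 1 protease in SWOP. The mean of a gene's probe sets left 1 partner and 1 protease in SWOP, and quantile normalization or centring 1 protease. Whether replicate numbers pair the arrays was not settled, since differently numbered pairs were not set beside the same-numbered ones. Correlations of same-numbered deviations ran from -0.179 to 0.44 over 30 pairs with 10 above 0.1. With the replicate block RCO had 4 growth factor genes and 7 proteases and SWOP 1 collagen gene.

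Leaving out 1 array gave, by list, 9 to 11, 14 to 15, 7 to 9, 9 to 12 and 11 to 14 calls in RCS, 3 to 7, 4 to 7, 1 to 5, 3 to 8 and 1 to 7 in RCO, and 0, 1 to 3, 0 to 1, 0 and 0 to 2 in SWOP. In RCO, omission of RCO replicate 3 or control replicate 2 gave the low end for other matricellular genes, growth factor genes, collagens and proteases, and RCO replicate 2 that for the first 2 of these. Without RCO replicate 5 there were 5 growth factor genes, without control replicate 3 there were 4, and without RCO replicate 1 or 5 there were 7 proteases. Without RCO replicate 2 or control replicate 1, 3 or 5 there were 2 proteases. In SWOP, omission of SWOP replicate 4 or 5 or control replicate 4 left 1 partner, and that of SWOP replicate 1 or control replicate 1 added 1 growth factor gene. Proteases in SWOP numbered 0 without control replicate 4 and 1 without any single SWOP array or control replicate 1, 2 or 5.

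Over all probe sets, the 2571 calls in RCO against control became 564 with 2 groups fitted, 1135 without RCO replicates 2 and 3, 1528 without control replicate 2, and 1323 (without RCO replicate 3) to 4251 (without RCO replicate 5) with 1 array left out. The 1716 calls in SWOP against control became 957 after quantile normalization, 5710 with array weights, 4091 with 2 groups fitted and 480 (without control replicate 4) to 2023 with 1 array left out, with 660, 856, 528 and 670 without SWOP replicates 2 to 5 and 567 and 903 without control replicates 2 and 5. The 2414 calls in RCO against SWOP became 863 with 2 groups fitted and 1006 (without SWOP replicate 5) to 2988, with 1376 without RCO replicate 3 and 1093, 1369 and 1375 without SWOP replicates 2 to 4. The 4572 calls in RCS against RCO became 931 with 2 groups fitted, 9052 without RCO replicates 2 and 3, 2951 without the pair of spike-in outliers and 2053 (without RCS replicate 3) to 7448 (without RCO replicate 2), with 2945 and 2410 without RCO replicates 1 and 5. With 1 array left out, RCS against control gave 9439 to 11417 calls and RCS against SWOP 5430 to 7118. The number of arrays limits the precision. Causes were not tested.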
